A study of Mus musculus with 4 samples.

Results

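The skeletal muscle genes described here were 46 genes of the contractile apparatus and its energy supply in striated muscle, taken by gene symbol from the 22326 named genes on the array and covered by 66 of the 31374 named probes. The measurements were 4 one-colour Agilent mouse expression arrays, 1 for each combination of tissue and genotype, so no difference in this study has a replicate check and none was tested. Each array carried equal amounts of total RNA pooled from 5 mice of the C57BL/6N strain at 4 weeks of age. The genotypes were wild type (Pnpla7+/+) and Pnpla7-/-, a loss of the gene for a lysophospholipase of the patatin-like phospholipase domain family, and the tissues were liver and white adipose tissue (WAT). Neither sex nor fat depot is stated in the labels, whose extraction protocol speaks of livers even for the 2 fat samples. The probe for Pnpla7 itself read log2 levels of -0.44 in wild-type WAT and -1.43 in Pnpla7-/- WAT, and 3.18 and 3.0 in the 2 livers. The label was thus not borne out by this probe in liver, where the ratio was -0.18 (log2). Whether it lies in the deleted part of the gene is not known, and the arrays of this genotype are called labelled knockout throughout.

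Skeletal muscle contracts by the sliding of myosin-based thick filaments along actin-based thin filaments, which are anchored in the Z-disc and triggered by calcium released from the sarcoplasmic reticulum. Most of these proteins exist as isoforms from separate genes that mark fast-twitch fibres, slow-twitch fibres and heart, or developing muscle. Adipocytes of white fat do not build sarcomeres. Some mouse fat depots lie against muscle of the body wall, the limb or the back, but the depot taken here is not stated. Among the 46 genes, creatine kinase of sarcomeric mitochondria (Ckmt2), myoglobin (Mb) and the heart and muscle form of a cytochrome c oxidase subunit (Cox6a2) are also known from brown fat.

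Signals are given as the level, which is the processed signal divided by the 75th percentile of the array (for a gene with several measured probes, the geometric mean over them). The log2 ratio is that of labelled knockout over wild type. A gene was measured in a pair of arrays when a probe of it was well above background on both, and was called at 2-fold. In the WAT pair, 39 of the 46 muscle genes were measured, and 32 of them were at least 2-fold higher in the labelled knockout, 0 were at least 2-fold lower and 7 lay within 2-fold. The same call was met upward by 2.16% and downward by 2.01% of the 16130 genes measured in that pair. The 46 genes were chosen with earlier results of these data known, so this contrast reflects that choice as well. The median log2 ratio of the 39 genes was 2.66, a 6.30-fold difference, with quartiles at 1.39 and 3.93 and a range from -0.21 to 6.64. Over all measured genes the median was 0.02 and the SD 0.48. Background correction by normexp lowered 12 of the 39 log2 ratios by more than 1.5-fold, and the median was then 2.08. A further 5 muscle genes were seen in labelled-knockout WAT alone, where 0.936% of all named genes were, and 2, Tnni1 and Jph1, were not well above background on either WAT array. In these pooled bulk samples, more muscle tissue in a pool and more muscle RNA per cell cannot be told apart.

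**Figure D1:**
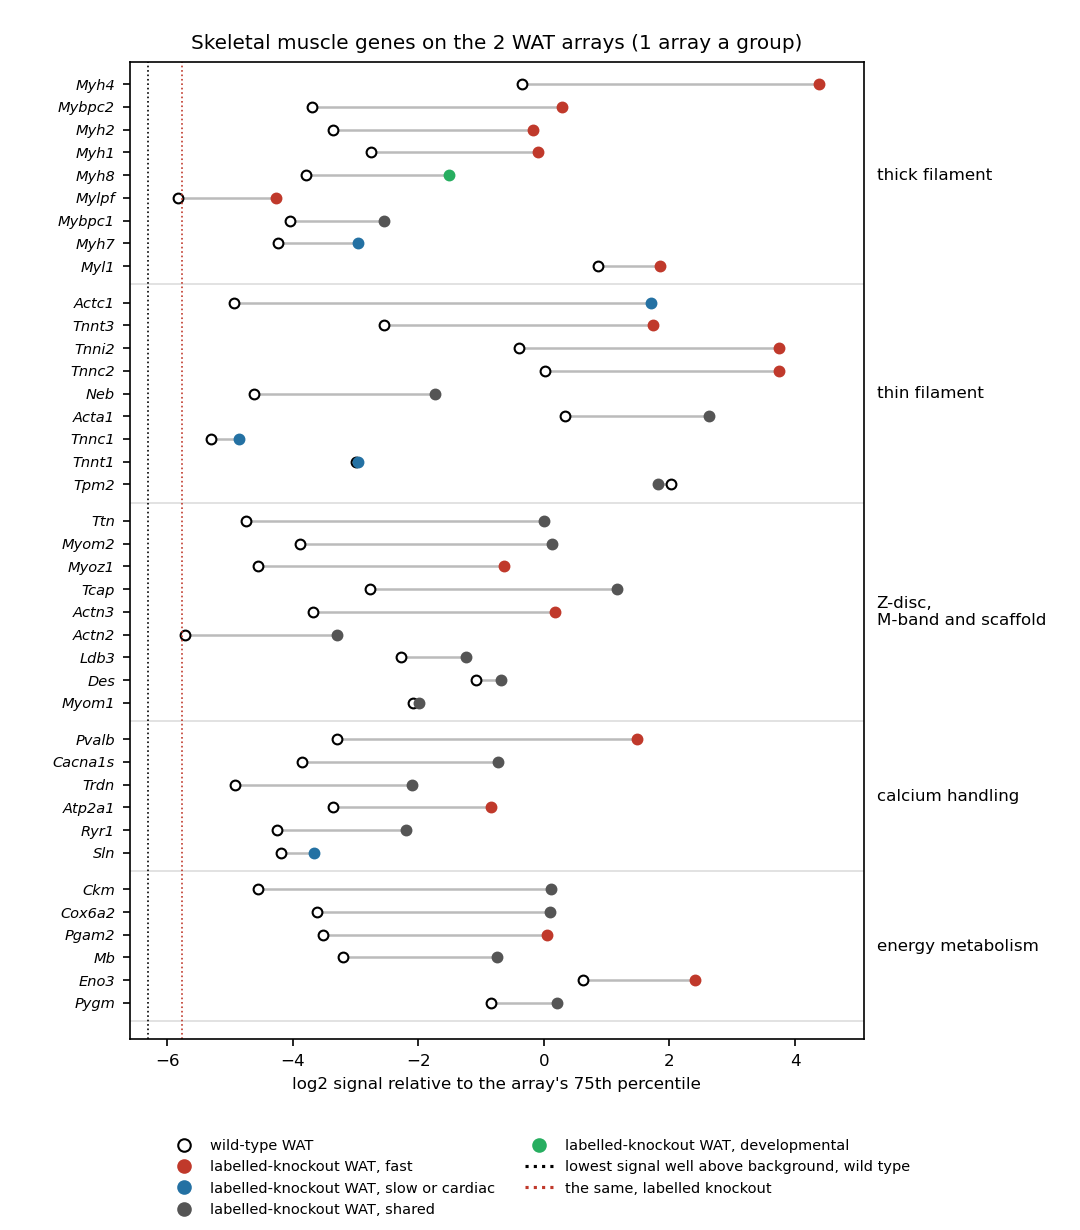
Log2 level (signal relative to the array's 75th percentile) of the 39 muscle genes measured in WAT, by role. Open circles are the wild-type array and filled circles the labelled-knockout array, coloured by fibre class, with 1 array a group and no error bars. Dotted lines mark the lowest signal well above background on each array. In 38 of the 39 genes the filled circle lies to the right, and Tpm2 is the exception.

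The probes decide which isoform each value stands for, so 10 of the 60-base probes are printed here as the files give them (mm9 build). Each reads without a stop codon in at least 1 frame, and the exon annotation of this build was not used here. They were picked because they stand for isoforms that differed unequally between the fat pools (Myh8, Acta1, Actn2, Actn3, Tnnt3, Myl1) or genes within 2-fold (Tnnc1, Tpm2). Capitals mark the longest run that a probe shares with a probe of any other muscle gene among the 46. Probes with an interval longer than 60 bases cross an intron.

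Myh8, chr11:67121925-67121984 (+): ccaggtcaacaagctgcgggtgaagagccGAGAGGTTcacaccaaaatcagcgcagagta
Acta1, chr8:126416197-126416256 (-): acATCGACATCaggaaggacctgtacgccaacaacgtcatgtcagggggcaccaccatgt
Actn2, chr13:12364990-12367362 (-): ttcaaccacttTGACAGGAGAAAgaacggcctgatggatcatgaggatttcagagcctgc
Actn3, chr19:4861727-4862212 (-): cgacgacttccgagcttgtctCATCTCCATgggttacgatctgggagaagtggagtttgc
Tnnt3, first probe, chr7:149698500-149700262 (+): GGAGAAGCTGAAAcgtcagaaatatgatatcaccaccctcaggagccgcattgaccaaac
Tnnt3, second probe, chr7:149698467-149698526 (+): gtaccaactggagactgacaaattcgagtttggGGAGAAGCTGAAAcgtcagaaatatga
Tnnc1, chr14:32023360-32023776 (+): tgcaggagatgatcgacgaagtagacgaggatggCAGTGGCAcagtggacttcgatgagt
Tpm2, first probe, chr4:43532262-43532321 (-): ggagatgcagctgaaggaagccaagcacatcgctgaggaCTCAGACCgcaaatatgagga
Tpm2, second probe, chr4:43531276-43531335 (-): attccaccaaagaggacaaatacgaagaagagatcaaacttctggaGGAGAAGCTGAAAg
Myl1, upstream probe, chr1:66976853-66981100 (-): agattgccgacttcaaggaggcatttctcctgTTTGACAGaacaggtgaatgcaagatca

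The longest run shared by any 2 probes of different muscle genes was 13 bases, between Tnnt3 and Tpm2 (capitals above) and between Atp2a1 and Des. Tnnt3 and Tpm2 read 4.28 and -0.21 as log2 ratios in WAT. The longest runs shared within the 10 pairs of myosin heavy chain probes, counting 1 probe a gene, were 5 to 10 bases, and the probes of the 2 alpha-actins Acta1 and Actc1 shared 6 bases. No probe of the 46 genes shared a run of 20 bases with a probe of another gene anywhere on the array. Of the 66 probes, 13 span more than their own length in the genome and therefore match spliced RNA. Whether a transcript of one family member binds the probe of another was not tested, since no transcript sequences were used. Short runs between probes cannot show it, because probes of a family can lie at different places in their transcripts.

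Among the thick filament genes, myosin heavy chains, their light chains and myosin-binding protein C, 8 of 9 were at least 2-fold higher in labelled-knockout WAT, with a median log2 ratio of 2.27. Myh4, the heavy chain of the fastest (type IIb) fibres, stood at a level of 0.783 in wild-type WAT and 20.8 in labelled-knockout WAT, a log2 ratio of 4.73. Its probe was not well above background in either liver. The heavy chains of the other fast fibres followed at 3.19 (Myh2, type IIa) and 2.66 (Myh1, type IIx). Myh7, the slow and cardiac heavy chain, read 0.0531 and 0.129 in the WAT arrays, a log2 ratio of 1.28. In liver, where little muscle myosin is made, its levels were 0.0368 and 0.0332, so the wild-type fat pool was 1.44-fold above wild-type liver for this probe.

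Myh8, the perinatal heavy chain, averaged 2.27 over 3 measured probes with unlike ratios. Its bright probe, printed above, went from 0.970 to 21.8, a log2 ratio of 4.49, close to the levels of Myh4. Whether Myh4 RNA adds to its signal was not tested. The dimmer probes read 1.67 and 0.64, from levels of 0.0230 and 0.0171 in wild-type WAT. A further probe was not well above background on either WAT array. The value of Myh8 therefore rests on which probe is taken. The essential light chain Myl1 had the lowest ratio of the thick filament genes, at a log2 ratio of 1.0, which is 1.99-fold and just outside the limit. Its 3' probe was already at 9.77 in wild-type WAT and reached 16.5 on the other array (log2 ratio 0.76), and the upstream probe printed above went from 0.336 to 0.790, a log2 ratio of 1.23. Both were not well above background in liver, so Myl1 signal in the wild-type fat pool was at least 105-fold above liver. The regulatory light chain Mylpf read 1.57, and the myosin-binding proteins C read 1.5 (Mybpc1, known as the slow form but present in fast fibres too, and classed here as shared) and 3.99 (Mybpc2, the fast form).

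Among the thin filament genes, actins, tropomyosin, nebulin and the troponins that bind calcium and hold the filament inhibited, 6 of the 9 measured were at least 2-fold higher and 3 lay within 2-fold. Actc1, the alpha-actin of heart and of immature skeletal muscle, had the highest ratio of the 39 measured genes. It went from 0.0328 in wild-type WAT to 3.27 on the labelled-knockout array, 99.7-fold or 6.64 as a log2 ratio. It was not well above background in both livers. Acta1, the alpha-actin of mature skeletal muscle, went from 1.27 to 6.18, a log2 ratio of 2.28, and was seen in labelled-knockout liver alone at 0.0372. The sarcomeric actins thus differed widely in how far apart they lay between the pools.

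The fast troponins were among the highest of the set. Tnnt3, which ties troponin to tropomyosin, had a log2 ratio of 4.28, with its overlapping probes at 3.94 and 4.62. Tnni2, the inhibitory subunit, went from 0.756 to 13.4 (4.15), and Tnnc2, the calcium sensor, from 1.01 to 13.5 (3.74). Their slow or cardiac counterparts did not follow. Tnnt1 read 0.125 and 0.128, a log2 ratio of 0.04, Tnnc1 read 0.0254 and 0.0345, a log2 ratio of 0.44, and Tnni1 was not well above background in both fat pools. Tnnt1 and Tnnc1 gave more signal in liver than in fat among the wild-type arrays, with log2 ratios of WAT over liver of -0.94 and -0.75.

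Neb, the nebulin ruler of the thin filament, took the middle place in this role with a log2 ratio of 2.89, from 0.0406 to 0.301. Its measured probes lay above the wild-type fat level in wild-type liver, at 0.274 and 0.114 against 0.0712 and 0.0232. Tpm2, beta-tropomyosin, is also made by smooth muscle and connective tissue cells. It read 4.07 in wild-type and 3.53 in labelled-knockout WAT, a log2 ratio of -0.21, the only muscle gene of the 39 below 0.

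Among the genes of the Z-disc, the M-band and the elastic scaffold, 7 of the 9 measured were at least 2-fold higher, with a median of 3.85. Ttn, the giant spring titin, stood at 0.0371 in wild-type and 1.0 in labelled-knockout WAT, a log2 ratio of 4.76. That value comes from 1 of its 4 probes, the most 3' one, and the other 3 were not well above background on the wild-type array, at levels from 0.00727 to 0.00811 there and from 0.0205 to 0.207 in the labelled knockout. The log2 ratio was 3.57 over all 4 probes with no filter on background, and 3.68 under normexp. In liver the 3' probe read 0.0376 and 0.0230, so the wild-type fat pool was no brighter than wild-type liver. Actn3, the fast-fibre alpha-actinin, took the middle place at 0.0782 and 1.13 (3.85), and Actn2, which all fibres carry, read 2.43 from a signal of 0.0190 close to background. Myom2 (4.01), the calsarcin Myoz1 (3.93) and telethonin Tcap (3.93), which caps titin at the Z-disc, completed the upper group.

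At the lower end of this role, Ldb3, a Z-disc adaptor, was just inside the limit at 1.04. Desmin, the intermediate filament gene Des, which smooth muscle shares, read 0.471 and 0.620, a log2 ratio of 0.40, and its 10 repeat spots gave an SD of only 0.04. The myomesin Myom1 read 0.237 and 0.252, a log2 ratio of 0.09, against 4.01 for its relative Myom2. Seen in labelled-knockout WAT alone were the Z-disc protein myotilin (Myot, 0.0172 and 0.330), at least 19.2-fold higher, the small muscular protein Smpx (0.00814 and 0.0387), at least 3.06-fold, and the slow-fibre calsarcin Myoz2 (0.00650 and 0.0354), at least 2.80-fold. Each bound sets the bright array's level against the lowest signal that counted as well above background on the dim array, or against the probe's own signal there where that was higher.

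Of the genes that handle calcium, 5 of the 6 measured were at least 2-fold higher. Pvalb, the calcium buffer parvalbumin of fast fibres, went from 0.102 to 2.81, a log2 ratio of 4.79, with its probes at 5.27 and 4.31. The probe with the lower ratio gave 0.472 and 0.356 in the livers, above the 0.252 of wild-type WAT, while the other was not well above background in liver. The calcium channel of the T-tubule Cacna1s (3.13), triadin (Trdn, 2.82), the reticulum's fast calcium pump Atp2a1 (2.51) and its release channel Ryr1 (2.05) lay between. For the middle pair, Trdn went from 0.0330 to 0.232 and Atp2a1 from 0.0978 to 0.557, with 0.0775 and 0.0871 for Atp2a1 in the livers. Casq1, the calcium store protein of fast fibres, was seen in labelled-knockout WAT alone, at 0.235 against 0.0134, and was at least 17.6-fold higher. Sarcolipin (Sln), the pump inhibitor of slow and atrial muscle, read 0.0546 and 0.0789, a log2 ratio of 0.53.

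All 6 measured genes of energy metabolism were at least 2-fold higher. Ckm, the cytosolic muscle creatine kinase, went from 0.0427 to 1.08, a log2 ratio of 4.66, and was not well above background in liver. Ckmt2, its mitochondrial partner, was seen in labelled-knockout WAT alone, at 0.521 against 0.00615, and was at least 41.3-fold higher. Cox6a2 read 3.71 and Mb read 2.45, and both genes are also expressed by brown adipocytes. The glycolytic enzymes of muscle differed widely: phosphoglycerate mutase Pgam2 went from 0.0877 to 1.04 (3.57), enolase Eno3 from 1.54 to 5.3 (1.79), and glycogen phosphorylase Pygm from 0.560 to 1.16 (1.05), just inside the 2-fold limit.

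Grouped by fibre class, the 15 measured of 16 fast-fibre genes had a median log2 ratio of 3.74, and 14 of them were at least 2-fold higher, Myl1 being the exception. The 18 measured of 22 genes shared by all fibres had a median of 2.44, and 15 were at least 2-fold higher. The 5 measured of 7 slow or cardiac genes had a median of 0.53. Of these Actc1 and Myh7 passed 2-fold, and Tnnt1, Tnnc1 and Sln did not. Myoz2 was seen in labelled-knockout WAT alone, at least 2.80-fold higher, and Tnni1 on neither WAT array. The class is small and not complete. Myl2 (1.72), Myl3 (1.37) and Casq2 (-0.43), also known from slow or cardiac muscle, were in the list of other striated muscle genes below. With Mybpc1 counted as slow, 3 of 6 passed and the median was 0.91. In isoform families with both forms measured, the log2 ratio was higher by 4.24 for the fast than the slow troponin T and by 3.30 for the fast than the cardiac troponin C. It was higher by 3.45 for Myh4 than Myh7, by 3.92 for Myom2 than Myom1, by 2.49 for Mybpc2 than Mybpc1 and by 1.43 for Actn3 than Actn2. The alpha-actins ran the other way, with a difference of -4.36 for Acta1 minus Actc1. These are differences of log2 ratios between probes on the same 2 arrays, with no replicate to set an error.

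**Figure D2:**
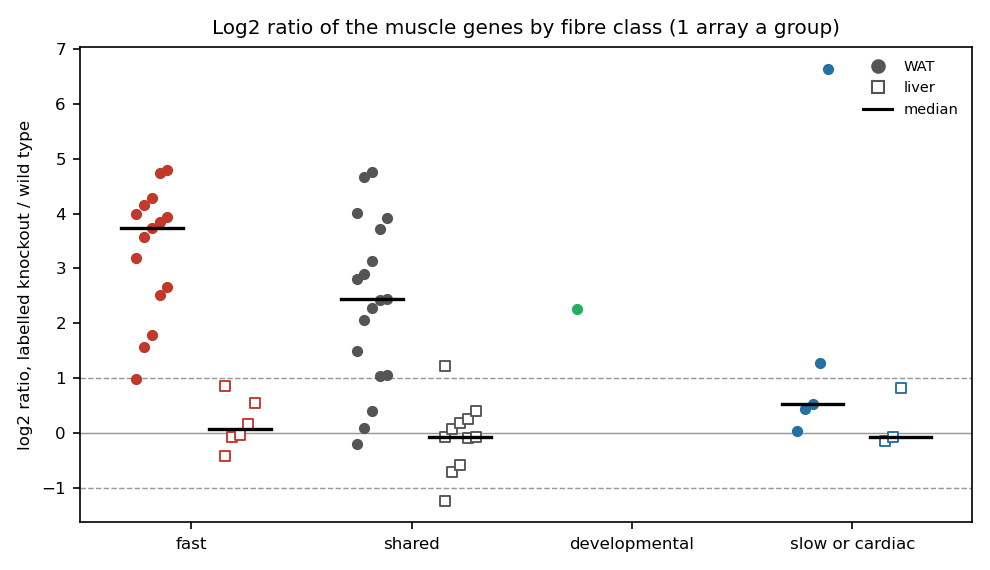
Log2 ratio of labelled knockout over wild type for each measured muscle gene, by fibre class, in WAT (filled circles) and liver (open squares), with 1 array a group. Horizontal bars are medians (WAT 3.74 for fast, 2.44 for shared and 0.53 for slow or cardiac genes) and dashed lines mark 2-fold. The circle at 6.64 in the slow or cardiac class is Actc1.

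The ratios of the muscle genes were not 1 common factor. Only 13 of the 39 lay within 2-fold of the median fold, and their SD was 1.62 on the log2 scale. The probe-level error model of the scanner software gave an error of 0.14 to 0.35 for a muscle gene's log2 ratio in the fat pair. Between probes of 1 gene, log2 ratios differed with a pooled SD of 0.23 over the 4746 genes with several measured probes, and with 0.99 over the 10 such muscle genes. In 9 of these 10 the probes had 1 sign, Tnnt1 being the exception (-0.18 and 0.25), and in 8 they lay within 1 of each other. By brightness in wild-type WAT, the 30 genes at 4 or more times the lowest well-above-background signal had a median of 2.48 and the 9 dimmer ones of 2.89, so bright and dim genes had similar medians. Across the 39 genes the rank correlation of the wild-type level with the log2 ratio, which share the wild-type signal, was -0.19 (a description, with no test). These errors are technical and say nothing of the spread between animals.

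In the liver pair, 20 of the 46 genes were measured and their median log2 ratio was -0.05, against -0.03 over the 15567 genes measured there. Cox6a2 was at least 2-fold higher in the labelled knockout (0.0475 and 0.112, a log2 ratio of 1.23), where 1.75% of all genes were. Under normexp its ratio was 0.16, and with the stricter signal limit of 4 times the lowest well-above-background signal it was not measured. Tpm2 was at least 2-fold lower (-1.23, with its probes at -1.19 and -1.27), where 0.886% of all genes were. A further 19 genes were not well above background in both livers, among them Myh4, Myh1, Myh2, Ckm, Actc1 and Myl1. The 6 genes seen in labelled-knockout liver alone were Acta1, Myh8, Tnnt3, Tnni1, Mb and Mybpc2. Their bounds were at least 2.15-fold for Acta1, 1.43-fold for Myh8, 1.22-fold for Tnni1 and 1.11-fold for Tnnt3. For Mb and Mybpc2 the bound lay below 0 on the log2 scale (-0.02 and -0.07). That array had more spots well above background, 68.2% against 65.5% in wild-type liver. The share of all named genes seen in labelled-knockout liver alone was not counted. Actn2 was seen in wild-type liver alone.

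Set against liver within each genotype, the wild-type fat pool already carried muscle signal. Of the 20 genes measured in both wild-type tissues, 8 were at least 2-fold higher in WAT, where 18.1% of 15304 genes were, 11 lay within 2-fold and 1, Neb, was at least 2-fold lower. A further 18 were seen in wild-type WAT alone, where 8.14% of all named genes were. Among them Myl1 was at least 105-fold, Acta1 at least 73.2-fold and Myh4 at least 45.2-fold above liver. The other 8 were neither measured in both tissues nor seen in WAT alone. Of these, Actn2 was seen in each tissue on a different probe, and the rest were not well above background in either. In the labelled knockout, 23 of the 25 genes measured in both tissues were at least 2-fold higher in WAT, where 17.7% of 15337 genes were. The median log2 ratio of WAT over liver was 3.26 there and 0.80 in the wild type. Tnnc1 was at least 2-fold lower there, and Tnnt1 lay within 2-fold. A further 19 were seen in WAT alone, where 4.44% of all named genes were, and Tnni1 was seen in liver alone. The number of muscle genes well above background was 21 and 26 in wild-type and labelled-knockout liver and 39 and 44 in the corresponding WAT arrays.

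The muscle genes made up a large share of the top of the WAT pair. They were chosen with earlier results of these data known, so this share is a description only. Of the 30 genes at least 8-fold higher in labelled-knockout WAT (0.186% of those measured), 17 were muscle genes of the 46, and of the 13 at least 16-fold higher, 8 were. Interleaved with them at the top were Wfdc2 (6.87), a secreted protease inhibitor family protein of epithelia, the epithelial tight-junction gene Cldn3 (4.58), and Elovl3 (5.05), which lengthens fatty acids in brown fat. Plekhs1 (6.05), Slc13a5 (4.08), a citrate transporter, and Acot1 (3.91), an acyl-CoA thioesterase, completed the first 20, the other 14 being muscle genes. Plekhs1, Slc13a5 and Acot1 are in none of the lists and are named because of their rank, after their values were seen.

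**Figure D3:**
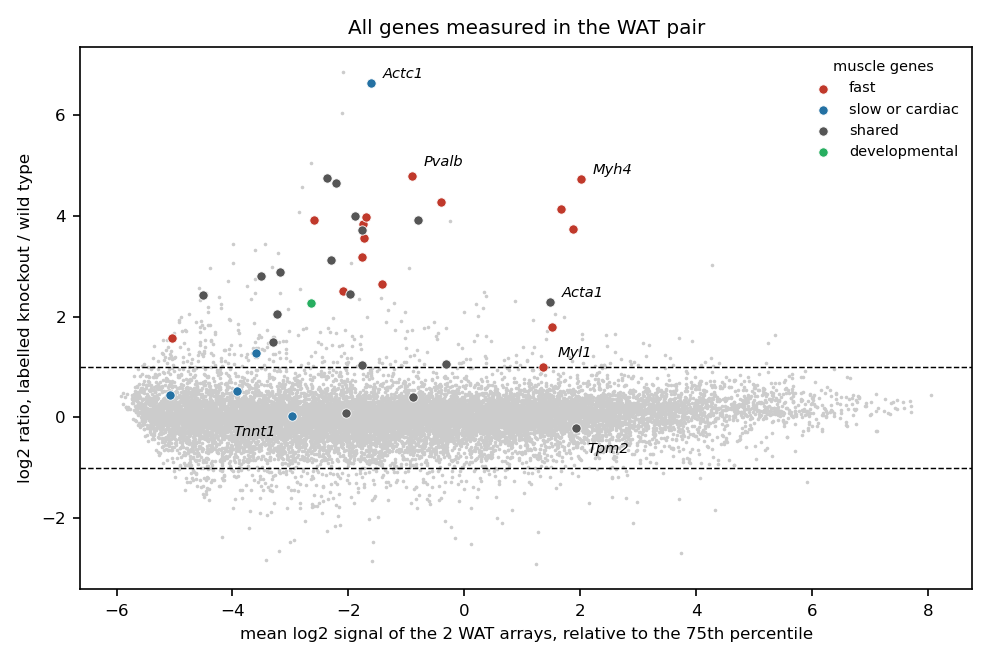
Log2 ratio of labelled knockout over wild type in WAT against the mean log2 level of the 2 WAT arrays, for all 16130 measured genes (grey) and the 39 muscle genes (coloured by fibre class), with 1 array a group. Dashed lines mark 2-fold. The muscle genes run from -0.21 (Tpm2) to 6.64 (Actc1), where all genes run from -2.92 to 6.87. Their signals do not reach those of the brightest genes, such as Fabp4 (log2 levels 7.61 and 7.83).

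A list of 69 other striated muscle genes had lower ratios. Its 48 measured genes had a median log2 ratio of 0.34, with 16 of them at least 2-fold higher and 0 lower. Some read at least as bright in wild-type liver as in wild-type WAT, such as Synpo2l (log2 levels 4.87 and 2.33) and Smyd1 (-0.37 and -0.42). Others, such as Dhrs7c and Cav3, were not well above background in wild-type liver. The part of such signal in the median was not tested. The largest ratios were those of Rpl3l (2.71), a ribosomal protein of striated muscle, Dhrs7c (1.96), Cav3 (1.85), the muscle caveolin, and Klhl31 (1.77). A further 9 were seen in labelled-knockout WAT alone, among them the muscle AMP deaminase Ampd1, at least 11-fold higher, and Art1, at least 9.67-fold. Of 15 genes listed as heart-restricted, 10 were measured, with a median of -0.01. Sbk3 (log2 ratio 1.0) was the 1 that reached 2-fold, beside Gata4 (0.45), Myl4 (-0.40) and Nppa (0.31). Not all of them are confined to heart. Gata4 read log2 levels of -0.89 in wild-type liver and -5.15 in wild-type WAT, and Myl4 read -1.23 and 0.66. Of 12 myogenic regulators and embryonic muscle genes, 6 were measured, with 0 past 2-fold in either direction and a median of 0.01. Mef2c read -0.29, Pax3 0.29, Pax7 0.13 and the embryonic heavy chain Myh3 -0.14. Myod1, Myog and Myf5, which drive muscle differentiation, were not well above background in both fat pools. Of the 2 fat pools, Myf6, the regulator kept on in mature fibres, was seen in the labelled knockout alone, at least 3.09-fold. Its probe was also well above background in the livers, at log2 levels of -4.98 (wild type) and -5.12 (labelled knockout).

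Markers of other cells differed between the 2 fat pools as well. Of 21 measured of 23 brown adipocyte markers, 17 were at least 2-fold higher in labelled-knockout WAT, with a median log2 ratio of 1.63. They were led by Elovl3 (5.05), the uncoupling protein Ucp1 (3.04), the deiodinase Dio2 (2.98) and Acot11 (2.31). The 4 within 2-fold were Letmd1 (0.77), Ebf2 (0.29), Zic1 (0.26) and Prdm16 (0.14), and Lhx8 and Epsti1 were not well above background on either WAT array. The summed level adds up, over the genes of a list, the mean signal of all probes of a gene, detected or not. For the brown adipocyte markers it was 77.3 in wild-type and 258 in labelled-knockout WAT, and for the 46 muscle genes 18.4 and 105. Without the 3 muscle genes known also from brown fat, 30 of 37 measured muscle genes were at least 2-fold higher with a median of 2.66. Of 16 measured of 23 epithelial markers, 6 were at least 2-fold higher (median 0.52), with Krt18 (2.17) and Spint1 (1.89) after Wfdc2 and Cldn3, and a summed level of 3.64 and 10.2. The epithelial adhesion genes Cdh1 and Epcam were seen in labelled-knockout WAT alone, at least 6.81-fold and 2.91-fold higher. The general adipocyte markers were bright on both fat arrays, with summed levels of 1485 and 1624, against 252 and 195 in the livers. Their median was 0.15, with 0 of 22 higher and 3 lower: Npr3 (-2.92), Sncg (-2.69) and leptin, Lep (-1.99). The part of these differences between the pools in the values of the muscle genes was not tested. Nor was the part of muscle RNA in the values of the brown adipocyte and other markers.

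**Figure D4:**
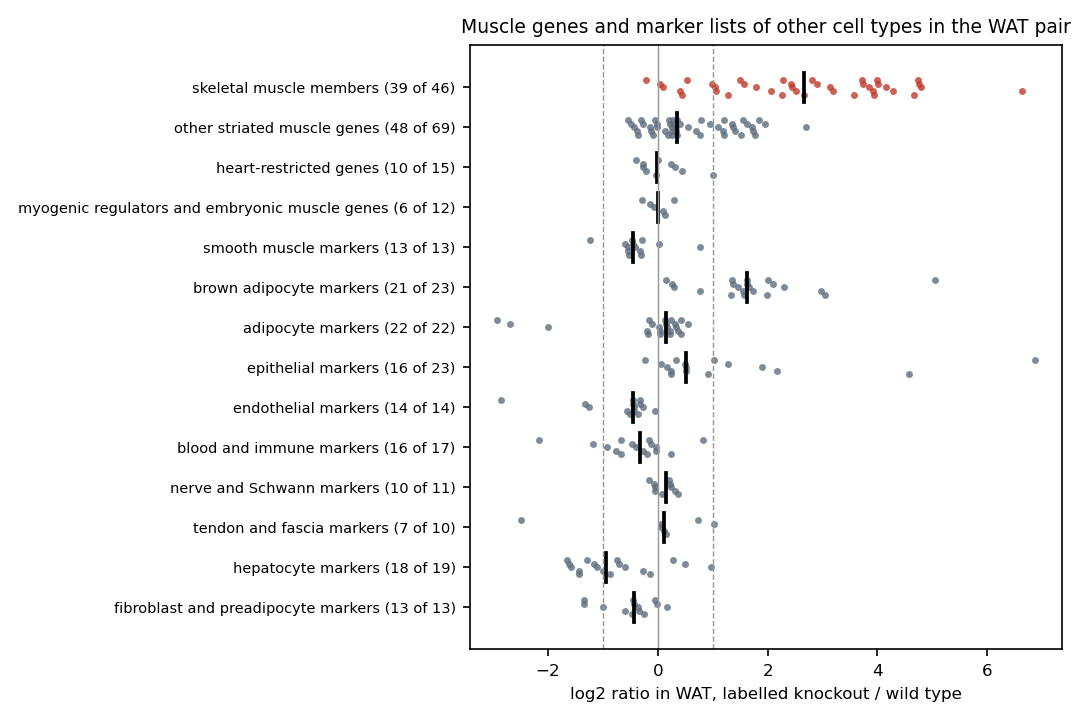
Log2 ratio of labelled knockout over wild type in WAT for the muscle genes (red) and for each measured gene of 13 marker lists (grey), with the number measured of those listed. Black bars are medians and dashed lines mark 2-fold. The median is 2.66 for the muscle genes, 1.63 for brown adipocyte markers and 0.34 for other striated muscle genes.

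Smooth muscle markers, which share Des and Tpm2 with the sarcomere, had a median of -0.45, with 0 of 13 higher and 1 lower (Hhip, -1.23), beside Actg2 (0.77), Acta2 (-0.60) and Smtn (-0.54). Their summed level was 82.7 in wild-type and 66.3 in labelled-knockout WAT. The medians were -0.45 for 14 endothelial markers (3 lower, led by Esm1 at -2.85), -0.33 for 16 measured of 17 blood and immune markers (2 lower, led by S100a8 at -2.17) and -0.44 for 13 fibroblast and preadipocyte markers (2 lower, led by Fbn1 at -1.33). Of 18 measured of 19 hepatocyte markers, 9 were at least 2-fold lower, with a median of -0.94 and Apoh (-1.65) the lowest. Cyp2e1 and Trf, which were bright in fat too, made up most of their summed level. Without them the other 17 summed to 33.2 in wild-type and 15.0 in labelled-knockout WAT, against 2584 and 2131 in the livers. Nerve and tendon markers were listed as well, and their bearing on the muscle signal was not tested. Of 10 measured of 11 nerve and Schwann cell markers 0 passed 2-fold in either direction (median 0.14), and of 7 measured of 10 tendon and fascia markers, 1 was higher (Prg4, 1.02) and 1 lower (Cilp, -2.48), with a median of 0.11. The tendon markers Tnmd and Mkx were not well above background in both pools.

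Promoter sequences were set beside the muscle genes as a description of the list. The genes were picked as muscle genes, so the shares below describe that choice and not the ratios. Genes with and without a motif were not compared within the list. RefSeq (GRCm38.p6) gave 40 promoters for 34 of the 46 genes, each from 250 bases before to 50 after the start. The E-box CANNTG is bound by muscle regulators such as MyoD, and CAGCTG is the form of it they favour. MEF2 factors bind an AT-rich motif. On either strand, CAGCTG was found for 18 of the 34 genes (52.9%), against 18.3% of all 27025 genes with a promoter in the table, and the MEF2 motif for 7 (20.6%), against 3.70%. The general CANNTG, which includes CAGCTG, was found for 85.3% against 75%, and TATAAA, searched on the gene's own strand only, for 17.6% against 9.77%. A match is a description of letters and not a shown site. Myh4, Myoz2 and Pgam2 held both CAGCTG and the MEF2 motif. Their 250 bases before the start are printed with those matches in capitals.

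Myh4, chr11:67237562-67237811 (+): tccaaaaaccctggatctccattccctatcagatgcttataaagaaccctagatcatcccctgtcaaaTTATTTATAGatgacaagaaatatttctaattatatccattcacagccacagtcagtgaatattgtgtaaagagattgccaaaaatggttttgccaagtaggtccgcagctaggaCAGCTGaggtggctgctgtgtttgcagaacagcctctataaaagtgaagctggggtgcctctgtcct
Myoz2, chr3:123034988-123035237 (-): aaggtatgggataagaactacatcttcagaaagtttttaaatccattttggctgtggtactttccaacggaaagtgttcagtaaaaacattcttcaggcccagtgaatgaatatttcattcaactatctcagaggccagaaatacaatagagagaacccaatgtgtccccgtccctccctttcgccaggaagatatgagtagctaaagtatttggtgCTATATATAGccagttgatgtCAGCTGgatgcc
Pgam2, chr11:5803797-5804046 (-): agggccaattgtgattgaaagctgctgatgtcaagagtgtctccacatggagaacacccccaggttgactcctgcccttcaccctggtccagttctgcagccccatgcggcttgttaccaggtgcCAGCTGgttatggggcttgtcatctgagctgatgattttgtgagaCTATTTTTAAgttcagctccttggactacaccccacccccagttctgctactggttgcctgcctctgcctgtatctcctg

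In Myh4 (log2 ratio 4.73) the CAGCTG begins 67 bases and the MEF2 match 182 bases before the start. In Pgam2 (3.57) these distances are 125 and 80 bases, and in Myoz2, seen in labelled-knockout WAT alone, 12 and 33 bases.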

How the data were processed

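The 46 muscle genes and the marker lists were chosen with earlier results of these data known. The scanner files the authors deposited give an intensity per spot, unnormalized between arrays per the file headers, and came from Agilent Feature Extraction 11.0.1.1 per the submitters' processing notes. The authors' table of the whole series held a linear ratio, each array's processed signal over a single constant of that array, uncentred, and served as an alternative. From the deposited intensities, log2 levels relative to each array's 75th percentile (non-control spots) were computed from the processed signal with Python 3.11.15. Outlier spots were left out and the spots of a probe averaged. A probe counted as measured if over a 0.5 share of its spots had the flag for well above background, on each array of the pair, and a gene's value is the mean over its measured probes. Symbols were updated through RefSeq (GRCm38.p6). Between 65.5% and 72.6% of spots were well above background. All 4 arrays lay on 1 slide with 1 scan. With 1 array a group, no p-value was computed, and the number of arrays limits the precision. Values are given for the highest, middle and lowest gene of each role, all genes under 2-fold, all bounds and all slow, cardiac or developmental genes, and for up to 4 genes of each marker list. Alternatives were limma 3.58.1 normexp background correction (offset 50), quantile normalization, the 75th percentile over probes detected on all arrays, probe rules and filters. The calculation was tested on simulated data.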

Additional observations from a re-analysis of the deposited data

Results flagged for a closer look

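Ttn and Neb were set apart because they ran in opposite directions in the 2 tissues, in each by more than 2 of the scanner software's errors. The other 8 muscle genes of opposite sign did not pass that limit in both tissues, with Pvalb (-0.41 in liver, error 0.20) just short of it. The log2 ratio of labelled knockout over wild type was -0.71 for Ttn in liver and 4.76 in WAT, and -0.57 for Neb in liver and 2.89 in WAT. The error of the liver ratios was 0.33 and 0.15. With 1 array a group the difference between the tissues was not tested. Both genes were measured in liver on probes that read as high there as in wild-type WAT, or higher.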

How the results depend on the processing

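No paired analysis was possible because each group had 1 array, and no replicate could be left out. The number of muscle genes at least 2-fold higher in WAT ran from 25 (of 31 measured, with signals of at least 4 times the lowest well-above-background signal) to 36 (of 46, with no filter), and was 0 downward under every alternative run. With normexp background correction the count was 29, the median of the muscle genes in WAT 2.08, that of fast genes 3.04 and that of shared genes 1.89. Myh7 (0.90), Mylpf (0.75) and Ldb3 (0.86) then fell short of 2-fold. Normexp moved 23 further ratios beyond the spread between probes without a change of call, by down to -1.29, with Ttn at 3.68. In liver under normexp, 0 were higher (Cox6a2 at 0.16), 2 lower and the median was -0.52, with all genes at -0.19. With no filter, 5 were higher in liver, the median of shared genes in WAT was 2.17 Ttn was 3.57 and Actn2 (0.96) fell short. With the stricter signal limit, 0 were higher in liver (Cox6a2 was not measured) and the median of shared genes was 2.17. Leaving out the genes also known from brown fat, chosen after seeing the data, left 0 higher in liver. Without Actc1, an alternative also added after seeing the data, 31 of 38 were higher in WAT. Counting Mybpc1 as slow, added likewise, gave a slow or cardiac median of 0.91. Quantile normalization brought Myl1 (1.02) past 2-fold. Of the 39 log2 ratios in WAT, 0 changed sign under the alternatives run. The brightest probe in place of the mean moved Myh8 to 4.49 and Trdn to 3.62. The cause of these shifts was not tested.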
